A study of Homo sapiens with 12 samples.

Results

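The cytosolic ribosomal proteins are the protein part of the ribosome that translates nuclear-encoded mRNAs. They were taken here as the protein-coding genes whose symbols start with RPL or RPS followed by a number and an optional A, X or L, together with RPLP0, RPLP1, RPLP2 and RPSA. By this rule 81 of the 20056 protein-coding genes of the RefSeq table were members, 49 of the large subunit and 32 of the small subunit. The rule uses symbols and no measured value, but this set of genes was picked with earlier results of these data known.

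Acetylated RNA immunoprecipitation sequencing (acRIP-seq) captures fragmented RNA with an antibody against N4-acetylcytidine (ac4C), so that acetylated stretches appear as peaks. It was performed in SW620 cells, an established line from a human colorectal cancer. The shControl libraries, 3 in number, came from cells with a control shRNA and carry the genotype label WT. The 3 shNAT10 libraries came from cells in which an shRNA lowered NAT10, labelled NAT10 knockdown. Both are stable cell lines made by shRNA. The labels name neither the shRNA sequence used nor whether replicates were separate cultures, so p-values measure only the spread between these libraries, which may be technical.

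NAT10 is the acetyltransferase that writes ac4C on rRNA, tRNA and mRNA. Each ribosomal protein is needed in one copy or a few per ribosome, and its mRNA is among the most abundant in a dividing cell. Most of these mRNAs begin with a cytosine followed by an unbroken run of pyrimidines, the 5′ terminal oligopyrimidine (5′TOP) motif, through which mTOR signaling controls their translation.

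The control lists held 18241, 22619 and 20063 peaks and the knockdown lists 28752, 17877 and 19047, so shNAT10 replicate 1 had the longest list. Peaks lay in 39.4% to 51.7% of all protein-coding genes. The lists hold no read counts, so depth is unknown, and a peak list cannot tell less mRNA from less acetylation. The score of a peak was used only as its percentile within its own library, because 7.61% to 13.7% of the peaks of a library sit at exactly 3100. NAT10 itself held 1, 0 and 2 peaks in the controls against 2, 0 and 1 after knockdown, and such numbers do not measure its mRNA. Of 10 epithelial and intestinal markers 8 had a peak, with EPCAM, VIL1, KRT8, CDX2 and CDH1 in all 6 libraries and KRT18 and CDX1 in none. CEACAM5, a surface antigen of intestinal epithelium, differed between the groups, with 2, 1 and 3 peaks in the controls and 0 in each knockdown library. Peaks throughout one group and none in the other, in either direction, were seen for 0.7% of all 12292 genes with a peak. Of 8 markers of other cell types 3 had one among them VIM in all 6 libraries and COL1A1 in 3.

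The annotated starts of some members are shown first, because the sequence there is what these genes are known to share. Each window holds 25 bases before and 25 bases from the RefSeq start in GRCh38.p14, on the transcribed strand, and capitals mark a C at the start with the pyrimidines that follow it without a break. RPL38 and RPL36A had peaks in all 6 libraries, RPS19 and RPS9 in 4, and RPS15 and RPL19 in 2. RPS6, RPL39 and RPLP2 had none by the midpoint rule. The windows lie at chr17:74203653-74203702 (+) for RPL38, chrX:101390986-101391035 (+) for RPL36A, chr19:41860230-41860279 (+) for RPS19 and chr19:54200833-54200882 (+) for RPS9. Those of RPS15, RPL19 and RPS6 lie at chr19:1438371-1438420 (+), chr17:39200258-39200307 (+) and chr9:19380212-19380261 (-). RPL39 is at chrX:119791606-119791655 (-) and RPLP2 at chr11:809942-809991 (+).
RPL38: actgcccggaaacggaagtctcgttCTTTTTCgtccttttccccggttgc
RPL36A: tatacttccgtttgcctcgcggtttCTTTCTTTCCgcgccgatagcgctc
RPS19: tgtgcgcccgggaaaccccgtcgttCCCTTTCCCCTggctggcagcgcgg
RPS9: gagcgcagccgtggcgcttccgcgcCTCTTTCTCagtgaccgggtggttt
RPS15: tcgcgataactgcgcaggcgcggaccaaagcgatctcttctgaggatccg
RPL19: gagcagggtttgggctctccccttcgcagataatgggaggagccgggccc
RPS6: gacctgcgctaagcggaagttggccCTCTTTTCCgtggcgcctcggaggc
RPL39: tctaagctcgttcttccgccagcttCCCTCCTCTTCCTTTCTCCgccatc
RPLP2: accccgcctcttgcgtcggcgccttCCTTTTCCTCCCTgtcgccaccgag
RPS15 and RPL19 show no capitals because their annotated start is not followed by such a run.

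A start with C and at least 4 further pyrimidines was searched on the transcribed strand only. It was found in 42 of the 62 members whose annotated start could be matched to the gene span (67.7%), against 632 of 13820 protein-coding genes (4.57%). The run did not separate members with peaks from members without. It was present in 10 of 14 matched members with a peak (71.4%) and in 32 of 48 without one (66.7%). Of members with the run 10 of 42 had a peak (23.8%), and of members without it 4 of 20 (20%). Outside the ribosomal proteins 407 of 590 genes with the run had a peak (69.0%), against 62.0% of genes without it. These shares are descriptions of annotated starts, which need not be the starts used in SW620 cells.

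Few ribosomal protein genes carried an ac4C peak. Of the 81 members, 20 had a peak in at least 1 of the 6 libraries (24.7%) and 61 had none (75.3%). Across all protein-coding genes 12292 of 20056 had one (61.3%). A peak in all 6 libraries was seen for RPL38 and RPL36A, 2.47% of the members, against 5973 genes in all (29.8%). The large subunit had 12 of 49 genes with a peak (24.5%) and the small subunit 8 of 32 (25%).

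Per library, 11.9% ± 4.46 (SD, n = 6 libraries) of the members had a peak, against 44.2% ± 4.47 of all other protein-coding genes. The share was lower in members in 6 of 6 libraries, with a difference (members minus other genes) of -32.3 ± 3.93 percentage points (two-sided exact sign-flip permutation test over libraries, p = 0.03125, adjusted over 4 comparisons 0.03125, the smallest that 6 libraries allow). The 77 mitochondrial ribosomal protein genes, which build the ribosome of the organelle, had a peak in 40.5% ± 5.83 per library, and members were lower in 6 of 6 libraries (members minus mitochondrial -28.5 ± 5.76 points) (exact permutation p = 0.03125, adjusted 0.03125). The 6 libraries share one cell line and one gene table. These p-values describe agreement between the libraries, not how other sets of genes of this size would compare. How reads that map to several places were handled is not stated, and its effect on these shares was not tested.

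Members are short genes, with a median span of 5015 bases against 8618 for mitochondrial ribosomal proteins and 24092.5 for all genes, and a longer span has more room for a peak. Among genes of at most 10 kb, 9.52% ± 3.58 of 70 members had a peak per library (SD, n = 6), compared with 38.6% ± 7.62 of 41 mitochondrial ribosomal proteins and 26.9% ± 3.73 of 5638 other genes. The differences, members minus each, were -29.1 ± 5.69 and -17.4 ± 2.58 points, again lower in 6 of 6 libraries (exact permutation p = 0.03125 each, adjusted 0.03125). Of the 11 members over 10 kb, 6 had a peak (54.5%), against 68.8% of all genes of that length.

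Other genes of the translation machinery are given as lists, without a test against the ribosomal proteins. Of 24 ribosome assembly factors 20 had a peak (83.3%) and 13 had one in all 6 libraries. MDN1, the giant ATPase of large-subunit maturation, held 10, 11 and 11 peaks in the control lists, 14, 7 and 9 in the knockdown lists, over a span of 177297 bases. RRP12, which acts in ribosomal subunit export, held 6, 11 and 13 peaks in control and 11, 12 and 10 in knockdown. WDR12, RIOK2, SBDS and NOP56 had none.

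Of 7 elongation factor genes 5 had a peak. EEF1A2, an isoform that delivers aminoacyl-tRNA, held 2, 1 and 1 control peaks and 3, 2 and 2 knockdown peaks, whereas EEF1A1 and EEF1B2 had none. EEF2, the translocase, had a peak in 1 of 3 control and 3 of 3 knockdown libraries, as did BCCIP of the assembly factors. At least 2 more knockdown than control libraries were seen for 3.51% of all genes with a peak. Of 14 other mRNAs known for a 5′TOP start 6 had a peak. PABPC1, the poly(A)-binding protein, had 1 in each library, and NPM1, TPT1, FAU, EIF3E, EIF3H, BTF3, EIF4A2 and HNRNPA1 had none. EIF3F went the other way from EEF2, with a peak in 3 of 3 control and 1 of 3 knockdown libraries. In none of these 3 lists did a gene have peaks throughout one group while lacking them throughout the other. Over all genes with a peak the share that did was 0.7%, so short lists would hold few such genes.

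NAT10 knockdown was then compared with control. Control libraries had a peak in 11, 6 and 8 members and knockdown libraries in 16, 7 and 10, so the groups overlapped. shNAT10 replicate 1 lay above every other library and shNAT10 replicate 2 below 2 of the control libraries. The means were 8.33 ± 2.52 and 11.0 ± 4.58 genes (SD, n = 3 each; two-sided exact permutation test, p = 0.6, where 3 against 3 cannot go below 0.1). Without shNAT10 replicate 1, the library with the longest list, the difference fell from 2.67 to 0.167 genes. Peaks in members numbered 11, 6 and 8 in control and 18, 7 and 10 in knockdown, 60 in all (means 8.33 ± 2.52 and 11.7 ± 5.69, exact permutation p = 0.6). As a share of the library's peaks this was 0.0603%, 0.0265% and 0.0399% in control and 0.0626%, 0.0392% and 0.0525% in knockdown. The mean shares were 0.0422 ± 0.0170% and 0.0514 ± 0.0118% (SD, n = 3 each, exact permutation p = 0.5).

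Neither subunit stood apart. The large subunit had 6, 4 and 3 genes with a peak in control and 9, 3 and 4 in knockdown libraries (exact permutation p = 0.9). For the small subunit the numbers were 5, 2 and 5 against 7, 4 and 6 (p = 0.4 by the same exact test). These differences lay within the spread between replicates.

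**Figure D1:**
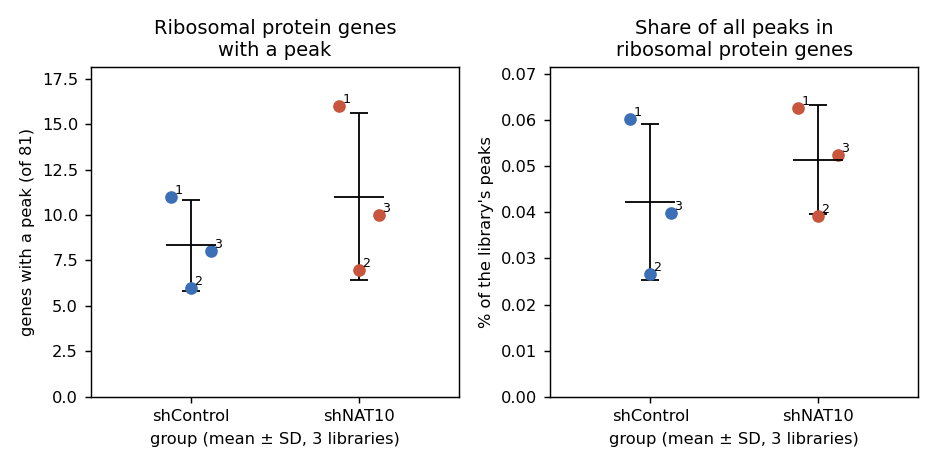
Ribosomal protein genes with an ac4C peak (left, of 81) and their share of the library's peaks in percent (right), per library, with the replicate number beside each point and lines for the mean ± SD of 3 libraries. The control points lie at 11, 6 and 8 genes and the knockdown points at 16, 7 and 10, and the groups overlap in both panels.

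A gene was called by presence when every library of one group, and no library of the other, held a peak. None of the 20 ribosomal protein genes with any peak was called, and the share over all genes with a peak was 0.7%. The same held for merged regions, peaks that overlap by at least 1 base on one strand, with 0 of 24 regions in members against 1.16% of all 41755. No member had peak numbers that did not overlap between the groups, against 2.25% of genes. Of the 2 members with a peak in every library, 0 had score percentiles that did not overlap, against 9.39% of 5973 genes. Scores tied at 3100 take a different percentile in each library, and 90 of these 561 genes had their best score there in a library of each group. With so few members carrying peaks, shares of this size correspond to less than 1 gene.

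RPS19 and RPS9 each had a peak in a single control library (1 of 3) and in 3 of 3 knockdown libraries. A difference of at least 2 libraries in that direction was seen for these 2 of 20 members and for 3.51% of all genes with a peak. Without shControl replicate 1 RPS19, and without shControl replicate 3 RPS9, was called by presence. In each case the library left out was the only control library with the peak. The share of all genes called with a library left out is not given. With equal peak numbers the difference of both genes fell from 66.7% to 33.3% of libraries, and among the top 50% of peaks by score it was 0. RPS19 is a small-subunit protein mutated in Diamond-Blackfan anemia. Its peak was the same 184 bases in every library that had it, chr19:41869031-41869214. The score percentile was 96.0 in shControl replicate 1 and 67.5, 23.5 and 2.30 in the knockdown libraries, with no peak in the other two control libraries. The control peak thus ranked above each knockdown peak, and the one in shNAT10 replicate 3 stood near the lowest score its list holds.

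RPS9, a small-subunit protein near the mRNA entry side, had its peak close to the 3′ end of the span. In shControl replicate 3 it ran over chr19:54206451-54207630 at percentile 36.5. The knockdown peaks, at percentiles 11.8, 12.6 and 29.8 in replicates 1 to 3, were shorter, 431, 904 and 1005 bases against 1180. A second peak ended at chr19:54200888, 31 bases into the span and over the annotated start printed above. Its midpoint lies before the span, so it does not count by the midpoint rule, and it was found in 3 control libraries (percentiles 65.3, 74.9 and 83.5) and in knockdown replicates 1 and 3 (70.3 and 73.3). When any overlap counts, RPS9 had a peak in all 6 libraries and the difference between groups was 0.

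RPLP2, an acidic protein of the stalk that recruits translation factors, had no peak by midpoint, and its case runs the other way. One stretch, chr11:809647-810039, had a peak of 393 bases in all 3 knockdown libraries and in no control library, each time at the score of 3100. It covers the whole start window printed above but has only 73 of its bases inside the annotated span. Counting any overlap made RPLP2 the one member called by presence, 1 of 22 members with a peak under that rule, against 0.632% of 12501 genes. RPLP1, its partner in the stalk, had a peak only in shNAT10 replicate 1 (percentile 73.4), and RPLP0, the stalk base, had none.

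RPL38, a small protein of the large subunit known from studies of selective Hox mRNA translation, had a peak in every library but at 2 places. In shControl replicates 1 and 2 and shNAT10 replicate 1 the peak was chr17:74209187-74209461, 275 bases, at percentiles 96.0, 46.8 and 71.1. In shControl replicate 3 it was chr17:74209804-74210537 at percentile 84.2, and in shNAT10 replicates 2 and 3 it ran on to 74210655, the last base of the span, at 87.3 and 83.2. No library had both, and each place was used by libraries of both groups.

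RPL36A, a large-subunit protein near the tRNA exit site, had one peak that began at chrX:101395335 in every library, ending at 101395793 in 4 libraries, at 101395776 in shControl replicate 2 and at 101395786 in shNAT10 replicate 1. Its percentiles in control replicates 1 to 3 were 83.8, 3.68 and 53.8, against 51.0, 70.1 and 79.5 after knockdown. The control values spanned the whole knockdown range, with shControl replicate 2 lowest and shControl replicate 1 highest. The peak also lies in the span of the readthrough gene RPL36A-HNRNPH2. Taking RPL38 and RPL36A together, the median best percentile was 61.4 ± 33.0 in control and 73.7 ± 11.0 in knockdown (SD, n = 3 each, exact permutation p = 0.7), and without shControl replicate 2 the difference turned from 12.3 to -0.855.

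RPL22, an RNA-binding protein of the large subunit, had the same 128 bases, chr1:6192927-6193054, in all libraries but shControl replicate 2. Control replicates 1 and 3 ranked it at percentiles 35.8 and 74.2, the knockdown libraries at 85.4, 66.2 and 45.0. RPS10, another gene mutated in Diamond-Blackfan anemia, had the same 78 bases, chr6:34421730-34421807, in all libraries but shNAT10 replicate 2. The control percentiles were 88.4, 18.4 and 52.4, and knockdown replicates 1 and 3 stood at 19.1 and 44.6. In both genes the groups overlapped. shNAT10 replicate 1 had a further RPS10 peak over bases 29 to 386 of the span (percentile 53.2), and every RPS10 peak also lies in the readthrough gene RPS10-NUDT3.

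RPS26, at the mRNA channel, had peaks with a shared start and varying ends. They began at chr12:56044119 in all libraries but shNAT10 replicate 1 and measured 93, 92 and 105 bases in control and 96 and 230 in knockdown replicates 2 and 3. The control percentiles were 73.3, 39.6 and 55.9, the knockdown ones 80.4 and 64.1, and they overlapped. RPS15, of the decoding site, had the same peak over bases 6 to 497 in shControl replicate 1 and shNAT10 replicate 1, in both at 3100. RPS2, RPS3, RPS23 and RPS28 of the same group had none.

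RPS29, a zinc-binding protein of the small-subunit head, had a peak in 5 libraries. In 4 of them its 5′ border lay within 3 bases, at chr14:49572266 or 49572269 on the minus strand, with lengths of 624 and 253 bases in shControl replicates 1 and 3 and 493 and 251 in shNAT10 replicates 2 and 3. The percentiles of these peaks were 61.4, 93.2, 94.0 and 57.1 in that order. In shNAT10 replicate 1 the peak lay elsewhere, at chr14:49572960-49573169 (percentile 92.7), and shControl replicate 2 had none.

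**Figure D2:**
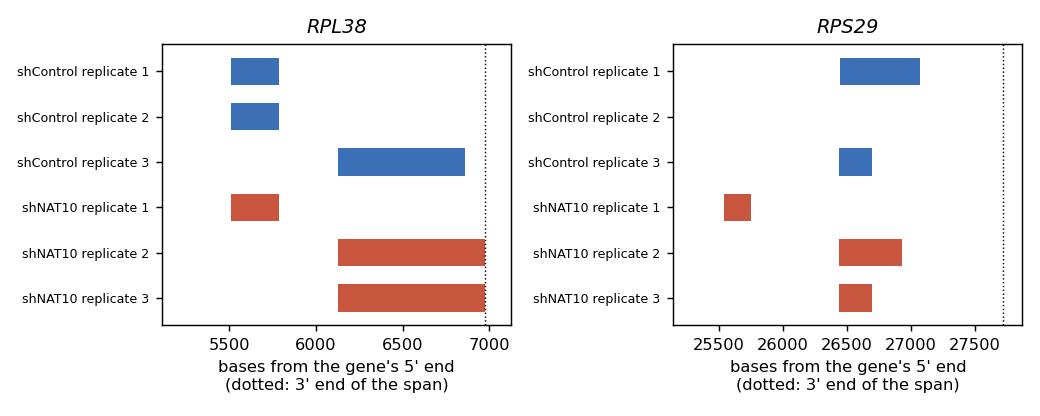
Peaks of RPL38 (left) and RPS29 (right) in each library as bars, against bases from the 5′ end of the gene span, with a dotted line at its 3′ end. RPL38 peaks fall at 1 of 2 places in each library, and the RPS29 peak of shNAT10 replicate 1 lies apart from those of the 4 other libraries that have one.

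At the peptide exit tunnel and its rim 2 of 8 genes had a peak. RPL19 had bases 60 to 461 of its span in shControl replicate 1 (percentile 91.8) and shNAT10 replicate 1 (92.7), and RPL35 the same 82 bases in shControl replicate 2 (47.8) and shNAT10 replicate 1 (79.8). RPL4, RPL17, RPL23A, RPL26, RPL31 and RPL39 had none. Of the 5S particle, which also restrains MDM2, RPL5 had a peak over the last 159 bases of its span in shControl replicate 1 (51.3) and RPL11 had none.

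The rest appeared in 1 or 2 libraries. RPL14 had a peak in shControl replicate 2 (percentile 3.37) and 2 in shNAT10 replicate 1 (46.6 and 54.9), the longer of them 1846 bases. RPL37 had one in shControl replicate 1 (20.1). RPS24 (18.2) and RPL7 (18.8) had one in shNAT10 replicate 1.
Of the paralogs, RPL3L, a muscle form, had a peak in shNAT10 replicate 3 (26.7), and RPL10L, RPL39L and RPS27L had none by midpoint. RPS6, the S6 kinase substrate, RPS27A, made as a ubiquitin fusion, and RPSA, known also as the laminin receptor, had no peak in any library.

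Peaks in ribosomal protein genes lay late in the span. Of the 60 peaks 11 had their midpoint in the first 20% of the span (18.3%), 20 between 20% and 80% (33.3%) and 29 beyond 80% (48.3%). For the 125100 pairs of a peak and a gene over all protein-coding genes the shares were 33.8%, 42.7% and 23.5%. The late group rests on few genes, since RPL36A, RPL38, RPS26, RPS29 and RPS9 account for most of it and the peaks of one gene in several libraries are not independent. The span includes introns, and no exon annotation was used here. Members are shorter genes, and spans were not matched in this comparison of positions. Member peaks had a median length of 264 bases (78 to 1846), against 207 over all genes, and 9 of 60 were at 3100 (15.0%), against 11.1%. Their median score percentile was 59.3, with a range of 2.30 to 96.0.

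Peak borders recurred between libraries. The 24 merged regions of members had peaks in 1 library in 10 cases and in at least 2 in 14. Of these 14, 7 had both borders the same to the base in every library (50%) and 11 shared at least one border (78.6%). Over all 25614 regions in at least 2 libraries the shares were 60.6% and 91.1%. Borders identical to the base were thus usual in these lists and not particular to ribosomal protein genes.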

How the data were processed

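acRIP-seq peak lists of 3 shControl and 3 shNAT10 immunoprecipitation libraries of SW620 cells were used, grouped by their titles. The authors deposited 1 peak list per library, not pooled and limited to mRNA, with peak names of the MACS type and a score per peak that starts at 50. Build GRCh38 is given in the submitters' processing notes. The aligner, caller version and settings are not given in the sources used here. The input libraries were not used here. Genes came from the RefSeq table of GRCh38.p14, with positions counted from 1.

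A peak was assigned to each gene whose span holds its midpoint on the same strand. Strand came from the RefSeq start table, which holds 64 of the 81 members. The other 17, RPL5, RPL7, RPL37 and RPL3L among them, took peaks of either strand. So did all genes without a strand, 4213 of the 20056 protein-coding genes, and shares over all genes include such peaks. Scores were ranked within a library and ties shared the mean rank. Group means were compared by two-sided exact permutation tests. Genes were named by role (5S particle, P stalk, exit tunnel, mRNA channel, RPS6, RPS27A, RPSA, paralogs), number of peaks, absence of peaks, calls, border spread and score percentile. RPS19, RPS9, RPL22, RPS10, RPL14 and members with a peak in 1 library were also named, to account for the members with a peak. Some items that the rules select are counted in the totals but not reported here. Members and lists were chosen with earlier results of these data known. The code was tested on simulated data. Python 3.11.15, numpy 2.4.6, pandas 2.3.3 and matplotlib 3.10.9 were used.

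Alternatives were the top 50% of peaks by score, equal peak numbers (17877), any overlap of 1 base, strand ignored, peaks in 1 gene only, wider and narrower lists, 50% coverage of a merged region, a difference of 2 libraries, each library left out and a replicate block. Restriction to members with a strand was added after the data were seen, and it did not restrict the other genes.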

Additional observations from a re-analysis of the deposited data

Results flagged for a closer look

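On the strand opposite to RPL28, a large-subunit gene with no peak of its own, 6 peaks lay inside its span, 1 in each library. They were noticed because peaks on that strand do not count for RPL28 in the main comparisons. All ended at chr19:55401762 on the minus strand, within the span of UBE2S, which encodes a ubiquitin-conjugating enzyme. In control their score percentiles were 78.2, 87.0 and 84.1, against 92.7, 94.0 and 93.2 after knockdown, where each peak sat at 3100. The groups did not overlap, which 9.39% of genes with a peak in every library also showed.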

How the results depend on the processing

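The differences between groups in members with a peak, member peaks and share of peaks kept their direction under every alternative run, and 3 against 3 libraries cannot pass a threshold of 0.05. The top 50% of peaks left no member with a peak in every library and so gave no median percentile. Leaving out 1 library at a time gave differences, knockdown minus control, of 0.167 to 4.67 genes, 0.167 to 5.67 peaks and 0.00133 to 0.0182 percentage points. In the same exercise the median best percentile of the members with a peak in every library differed by -0.855 to 26.6, reversed at -0.855 without shControl replicate 2 (exact permutation p = 0.8). The numbers of members called by presence, by merged region and by peak number ranged from 0 to 1. Each was 1 without shControl replicate 1 (RPS19) and 1 without shControl replicate 3 (RPS9). These were the only control libraries with the peak of the gene called. The number called by percentile stayed at 0. Shares over all genes with a library left out are not given. Counting any overlap of 1 base gave 1 call by presence, 1 by merged region and 1 by peak number, all RPLP2, because the alternative admits its peak over the gene start. The percentile rule gave 1 call with strand ignored, RPL28, through the peaks of UBE2S, and 1 with the wider list, RPL36AL. The score of RPL36AL is 3100 in 5 of 6 libraries, so that its call rests on how ties are ranked. With strand ignored 3 members had a peak in every library, and with the wider list 4. In the main setting the rule called 9.39% of all genes with a peak in every library. The share with strand ignored is not given. Asking for a gap of 2 or more libraries in either direction called 2 genes, RPS19 and RPS9, and 2 regions. At least 2 more knockdown than control libraries were seen for 3.51% of all genes with a peak. Shares in the other direction and over all regions are not given, so the 2 genes and 2 regions have no like share beside them. The share of members with any peak ranged from 18.5% (top 50% of peaks, all genes 41.9%) to 27.6% (wider list), below that of all genes each time. With a replicate block, the differences stayed at 2.67 genes, 3.33 peaks, 0.00919 percentage points and 12.3 percentiles, and the exact sign-flip permutation test over 3 pairs gave p = 0.25, 0.25, 0.25 and 0.75, where 0.25 is the smallest possible. Same-numbered libraries did not deviate together over 12292 genes (r = -0.0333, -0.0617 and 0.0413), so peak numbers showed no pairing. This cannot decide whether such libraries were prepared together, which the labels do not state. Depth is unknown, and an absent peak is not absent ac4C.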

Other observations

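Ribosomal proteins outside the symbol rule had peaks in 4 of 6 genes. RPL36AL, a gene related to RPL36A, had 1 peak in each library. Its score was 3100 in 5 of the 6 libraries and 3065.39 in shNAT10 replicate 2, so no order between the groups can be read from it. RPL26L1 had 2, 2 and 1 against 2, 0 and 2, RPL7L1 had 1 peak in shControl replicate 2, and FAU and RPL22L1 had none.

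RPS27L had no peak by midpoint but a low-ranked one over its start, from chr15:63157400, in shControl replicates 1 and 2 and shNAT10 replicate 3, at percentiles 23.1, 11.7 and 9.66, with 78 bases inside the span.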
